A study of Homo sapiens with 6 samples.

Results

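Complement components and regulators were followed in HepG2 cells as 35 named genes, taken from the deposited table by symbol, of 60240 genes in all. They cover the classical, lectin, alternative and terminal pathways and the regulators that restrain them. HepG2 is a human hepatocellular carcinoma line that keeps much of the secretory programme of hepatocytes. All 6 cultures were unmodified HepG2 cells in high glucose medium with fetal bovine serum, 3 of them untreated controls and 3 given recombinant GDF11 at 100 ng/ml for 24 h. GDF11 is a secreted ligand of the TGF-beta family, and the comparison asks how the liver cell's complement transcripts differ after a day with it. The libraries are called biological replicates of 1 line, so a p-value measures the spread between cultures of that line and not between people.

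The liver makes most of the complement proteins of blood plasma. Recognition of a surface by the classical or lectin pathway leads through paired serine proteases (C1r with C1s, MASP-1 with MASP-2) to cleavage of C4 and C2, while the alternative pathway amplifies through factors B and D. Every route meets at C3, after which C5 cleavage releases the peptide C5a and starts the membrane attack complex from C5b, C6, C7, C8 and C9. Plasma regulators (C4b-binding protein, factor I, C1 inhibitor, clusterin, carboxypeptidase N) and the membrane proteins CD46, CD55 and CD59 hold the cascade back.

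The 6 libraries held an estimated 47945801 to 53373955 reads each, a depth inferred from the spacing of low values. It is above what a run of the MiSeq named in the labels' protocols is known to yield, and this difference is unresolved. Values are variance-stabilised log2 values as the authors deposited them, with 5.52 standing for no reads. Where reads are given they are back-transformed from these values and called normalised reads. Their totals still differed between libraries and were highest in control replicates 1 and 2. Read levels, sums and ratios between groups are therefore not at equal depth, except where a share of all reads is given. On the first principal component control replicates 1 and 2 were at -46.5 and -52.2, control replicate 3 at -20.0 and the GDF11 replicates between 35.2 and 45.4, so that 1 control lay nearer to the treated libraries than the rest. The RNA integrity number was 9.6 to 9.9 in the controls and 9.4 to 9.6 with GDF11. All 10 hepatocyte markers were detected, as the label of the line implies. With GDF11, 5 of them (ALB, APOB, TTR, FGB and AFP) were lower at a limma adjusted p under 0.05. Of all tested genes 10.8% were lower at that threshold. ALB, APOB and AFP missed it after quantile normalization (limma adjusted p = 0.323, 0.263 and 0.441). ALB also missed it with RNA integrity as a covariate (limma adjusted p = 0.0509). The summed level of the 10 markers in normalised reads ran from 1521420 to 2017000 over the controls and from 1236030 to 1373760 over the treated libraries. This sum was not scaled to the library totals, which were highest in control replicates 1 and 2, so part of the gap between groups reflects those totals. In RNA of whole cultures, fewer cells that express a gene and less RNA per cell cannot be told apart.

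Of the 35 genes, 29 had values high enough to test, 10 were lower with GDF11, 0 were higher and 19 were not called. A gene was called at a Benjamini-Hochberg adjusted p under 0.05 in limma, adjusted over all 18723 tested genes, of which 10.8% were called lower and 11.7% higher. The 10 were both carboxypeptidase N genes (CPN1, CPN2), both lectin pathway proteases (MASP1, MASP2), C5, C6 and C8G of the terminal pathway, both C4b-binding protein genes (C4BPA, C4BPB) and clusterin (CLU). Their median difference was -1.19 on the log2 scale. In 8 of the 9 with enough reads in both groups for a ratio, the reads with GDF11 were under 0.5 of the control. C6 had too few reads with GDF11 for a ratio. It was high enough to test through its control values only, and 9 members were lower with a stricter filter on low values. C3, the component at which all routes meet, was not called, nor was any classical pathway or membrane regulator gene. Over the 29 tested genes the median difference was -0.29, against 0.0056 over all tested genes, and 25 of the 29 differences were negative. At an unadjusted p under 0.05, limma put 14 lower and 0 higher. The share of all tested genes at that threshold was not counted, so these 2 counts stand without a background. The count of higher genes was 1 after quantile normalization (CD59) and 1 with library weights (C8B), and 0 under each of the other 15 alternatives. Control and GDF11 values had no overlap in 17 of the 29, compared with 40.5% of all tested genes, and in 15 of the 29 every GDF11 library was the lower, compared with 19.6% of all tested genes.

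**Figure D1:**
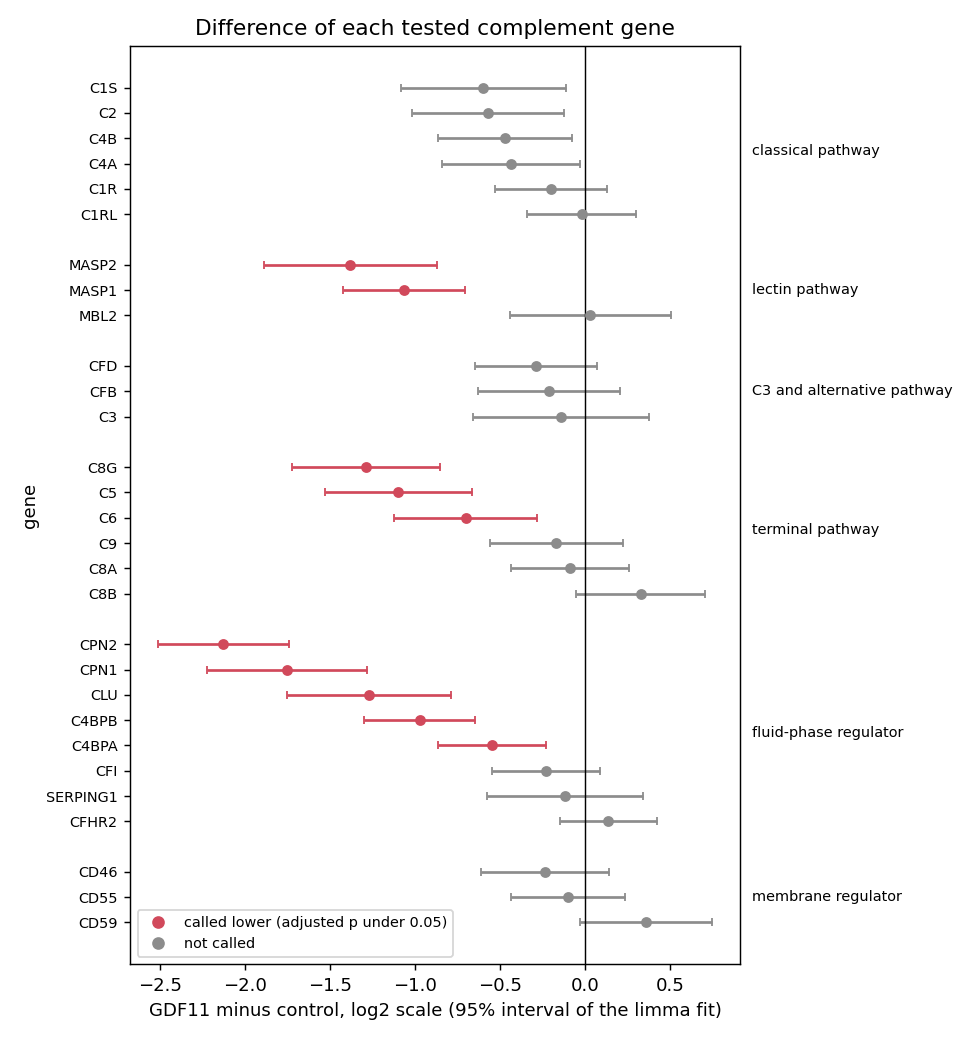
Difference between GDF11 and control for each of the 29 tested complement genes, grouped by role (horizontal axis, GDF11 minus control on the log2 scale; bars, 95% interval of the limma fit). Called genes are red and lie in the lectin, terminal and fluid-phase regulator groups; the classical, C3 and alternative, and membrane groups hold none.

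Some of these calls rest on particular libraries. Without control replicate 3, 14 members were lower and 0 higher, but the share of all tested genes called lower also went up, to 21.3% (19.5% higher). C2, C4A, C4B and CFD were the 4 additional genes in that fit. Control replicate 3 itself lay at a median of 0.23 of the way from the other controls to the GDF11 mean over 9 of the called genes (range -0.58 to 0.46). With RNA integrity as a covariate 6 members were called lower: CPN1, CPN2, MASP1, C8G, C5 and C4BPB. The same 6 were called lower under every 1 of the 17 alternatives run. The integrity number ran from 9.6 to 9.9 in the controls and from 9.4 to 9.6 with GDF11. Covariate and treatment therefore largely coincide, and their parts cannot be told apart well in 6 libraries.

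The classical pathway starts with the C1 complex, and its protease genes gave no call. C1R, which encodes the protease that activates C1s, had values of 8.19, 8.33 and 8.26 in the controls and 8.25, 7.95 and 7.98 with GDF11, a difference of -0.20 ± 0.15 (SE; limma adjusted p = 0.354). C1S, which encodes the protease that cleaves C4 and C2, had 10.77, 10.68 and 11.42 in the controls and 10.57, 10.22 and 10.29 with GDF11. The C1R groups overlapped, while those of C1S did not, with control replicate 3 the highest library. The C1S difference was -0.60 ± 0.21 with a 95% interval of -1.09 to -0.11, and its limma adjusted p was 0.0771. C1RL, a C1r-like protease gene, differed by -0.019 (95% interval -0.34 to 0.30). C2, which supplies the catalytic part of the classical C3 convertase, differed by -0.57 ± 0.20 (limma adjusted p = 0.0695) and did not overlap between groups. Its adjusted p was 0.021 without control replicate 3.

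C4 is the component that binds covalently to the target and carries C2. It has a pair of genes in the class III region of the major histocompatibility complex, C4A at chr6:31982057-32002681 and C4B at chr6:32014795-32035418 (GRCh38.p14), beside C2 and CFB. The canonical transcripts of C4A and C4B have 5427 bases each and differ at 13, an identity of 99.8%, so that 91.0% of their windows of 75 bases, the read length, occur in both or in another gene. Of the 13 differing bases, 5 fall in the stretch of exonic coding sequence shown here, positions 3366 to 3426 of each transcript, which is known to encode the residues that set the chemistry of the C4A and C4B isotypes. The differing bases are in capitals, and a read has to cover such bases to be assigned to either gene.
C4A: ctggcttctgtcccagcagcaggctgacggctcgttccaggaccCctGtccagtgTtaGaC
C4B: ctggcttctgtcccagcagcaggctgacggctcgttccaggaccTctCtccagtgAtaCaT
C4A had values of 15.02, 15.36 and 14.93 in the controls and 14.81, 14.68 and 14.51 with GDF11, and C4B had 14.92, 15.33 and 15.01 against 14.73, 14.64 and 14.48. Every GDF11 library lay below every control for both genes, yet neither was called (-0.43 ± 0.18, limma adjusted p = 0.113, and -0.47 ± 0.17, limma adjusted p = 0.0836). Because the authors' counting may have divided shared reads between them, the sum is the safer quantity. C4A plus C4B held 63883, 83199 and 63985 normalised reads in control replicates 1 to 3 and 55906, 51613 and 45927 with GDF11, a ratio of 0.727. C4A took 48.5% to 51.7% of the sum in each library. Both genes were called lower without control replicate 3 (limma adjusted p = 0.0236 for C4A and 0.0291 for C4B).

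In the lectin pathway the calls lay in the genes of the proteases. MASP2, whose product cleaves C4 and C2 once a lectin has bound, had values of 10.87, 10.84 and 10.12 in the controls and 9.19, 9.44 and 9.06 with GDF11. Control replicate 3 was the lowest control but still above all GDF11 libraries. MASP2 fell by 1.38 ± 0.22 on the log2 scale (limma adjusted p = 0.00291), and the control reads were 2.94 times those with GDF11. With RNA integrity as a covariate its limma adjusted p was 0.083. MASP1, which encodes the protease that activates MASP-2, had 11.82, 12.09 and 11.74 in the controls and 10.92, 10.89 and 10.65 with GDF11. The groups were far apart relative to their spread, the difference was -1.07 ± 0.16 (limma adjusted p = 0.00186) and the control reads were 2.16 times those with GDF11. MBL2, the mannose-binding lectin that these proteases travel with in plasma, was at 8.68 ± 0.38 in the controls and 8.71 ± 0.18 with GDF11 (SD, n = 3 each), a difference of 0.031 with a 95% interval of -0.44 to 0.50. FCN3, which encodes the lectin-like recognition protein ficolin-3, was listed at the lowest value in all 6 libraries.

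C3 was the most abundant complement transcript per length among the members with a canonical transcript (C1R had none). C3 had 17.13, 17.78 and 17.53 in the controls and 17.60, 17.29 and 17.14 with GDF11, and the groups overlapped fully. The difference was -0.14 ± 0.23 (limma adjusted p = 0.688), and its 95% interval of -0.66 to 0.38 leaves room for a moderate change either way. CFB, which encodes the protease of the alternative C3 convertase, had 13.73, 14.32 and 14.12 in the controls and 13.95, 13.80 and 13.79 with GDF11. It too overlapped, with a difference of -0.21 ± 0.18 (limma adjusted p = 0.435). CFD, which encodes factor D, the protease that cleaves factor B, stood at 7.77 ± 0.25 in the controls and 7.48 ± 0.085 with GDF11 (limma adjusted p = 0.221) and passed the threshold without control replicate 3 (0.0306). CFP, which encodes properdin, the stabiliser of the alternative convertase, had at most 5.77 normalised reads in any library and was not tested. A read-through transcript (ENSG00000244255) shares 90.6% of the 75-base windows of CFB and 62.0% of those of C2, and its own reads reached at most 0.315% of those given to CFB.

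**Figure D2:**
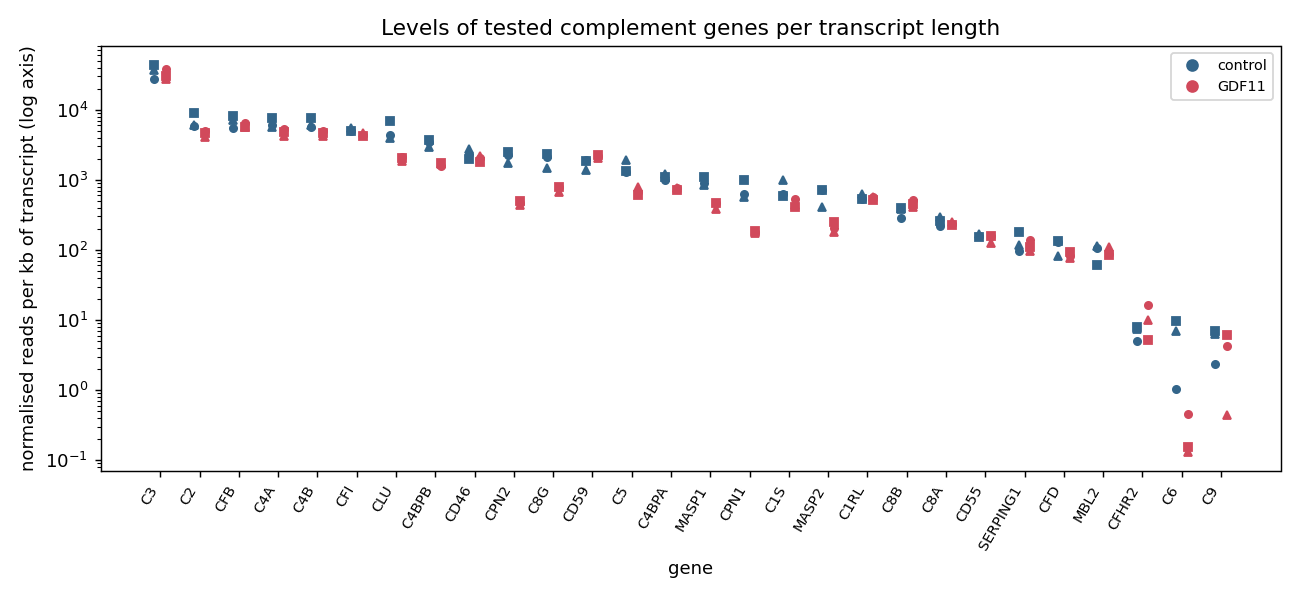
Normalised reads per kb of canonical transcript in each library for the tested complement genes that have such a transcript, in order of the control mean (vertical axis, log scale; blue, control; red, GDF11; the 3 symbols are replicates 1 to 3). C3 lies above all others in both groups, the gaps between colours are widest at CPN2, CPN1 and MASP2 among the well detected genes, and C6, C9 and CFHR2 lie at the bottom.

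Per kb of transcript, C3 stood at 35621 ± 7825 normalised reads for the controls and at 32044 ± 5299 with GDF11 (SD, n = 3 each). Below it in the controls came C2 (6963 ± 1726), CFB (6960 ± 1405), C4A (6513 ± 1076) and C4B (6451 ± 1008), which did not differ beyond their spread, and then CFI (5187 ± 328) and CLU (5054 ± 1574). With GDF11, CLU stood at 2014 ± 133 per kb, near CD46 (1992 ± 196) and CD59 (2175 ± 107). CPN2 went from 2166 ± 395 per kb to 467 ± 29. Summed without regard to length, the 35 genes made up 6984 ± 1167 of every 1000000 reads in the controls and 6420 ± 664 of them with GDF11. C3 alone gave 49.7% ± 3.5 of these reads in the controls and 55.6% ± 2.6 with GDF11. Without C3 the sum was 3483 ± 366 of 1000000 in the controls and 2838 ± 130 with GDF11.

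The terminal pathway split between its members. C5, the substrate of the C5 convertases and source of C5a, had values of 12.78, 12.85 and 13.35 in the controls and 11.87, 11.73 and 12.08 with GDF11. Here control replicate 3 was the highest library, away from the GDF11 group. C5 fell by 1.10 ± 0.19 on the log2 scale (limma adjusted p = 0.00409), to 0.456 of the control reads. C8G, which encodes the gamma chain of C8, a lipocalin-fold subunit, had 10.95, 11.08 and 10.43 in the controls and 9.61, 9.60 and 9.39 with GDF11. All GDF11 libraries were below all controls, the difference was -1.29 ± 0.19 (limma adjusted p = 0.00191) and the control reads were 2.68 times those with GDF11.

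The genes of the other C8 chains were not called. C8A, which encodes the alpha chain that is disulfide-linked to gamma, was at 9.42 ± 0.19 in the controls and 9.34 ± 0.071 with GDF11 (-0.086 ± 0.15, limma adjusted p = 0.719). C8B, the beta chain gene, was at 9.67 ± 0.23 and 10.00 ± 0.14, with every GDF11 library above every control (0.33 ± 0.17, limma adjusted p = 0.188). C8A and C8B are neighbours on chromosome 1 (chr1:56854797-56918223 and chr1:56929207-56966015), whereas C8G lies at chr9:136945243-136946975. The transcripts of the remaining pore components were scarce. C6 had values of 5.94, 6.75 and 6.57 in the controls and 5.80, 5.68 and 5.67 with GDF11, which are 3.87, 35.3 and 25.3 against 1.68, 0.569 and 0.489 normalised reads. The groups did not overlap, and C6 was called lower (-0.70 ± 0.19, limma adjusted p = 0.0266), but control replicate 1 was close to the GDF11 libraries. The C6 mean with GDF11 was 5.72, less than 0.5 above the lowest value, so the gene was tested only through its controls. The C6 call was lost without control replicate 2 (limma adjusted p = 0.0826) and without GDF11 replicate 1, 2 or 3 (0.0525, 0.0652 and 0.0763). C9, the pore-forming subunit, had 6.07, 6.44 and 6.39 in the controls and 6.25, 6.39 and 5.76 with GDF11, all near the floor and overlapping (limma adjusted p = 0.514). C7 was below the filter, with at most 14.3 normalised reads.

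**Figure D3:**
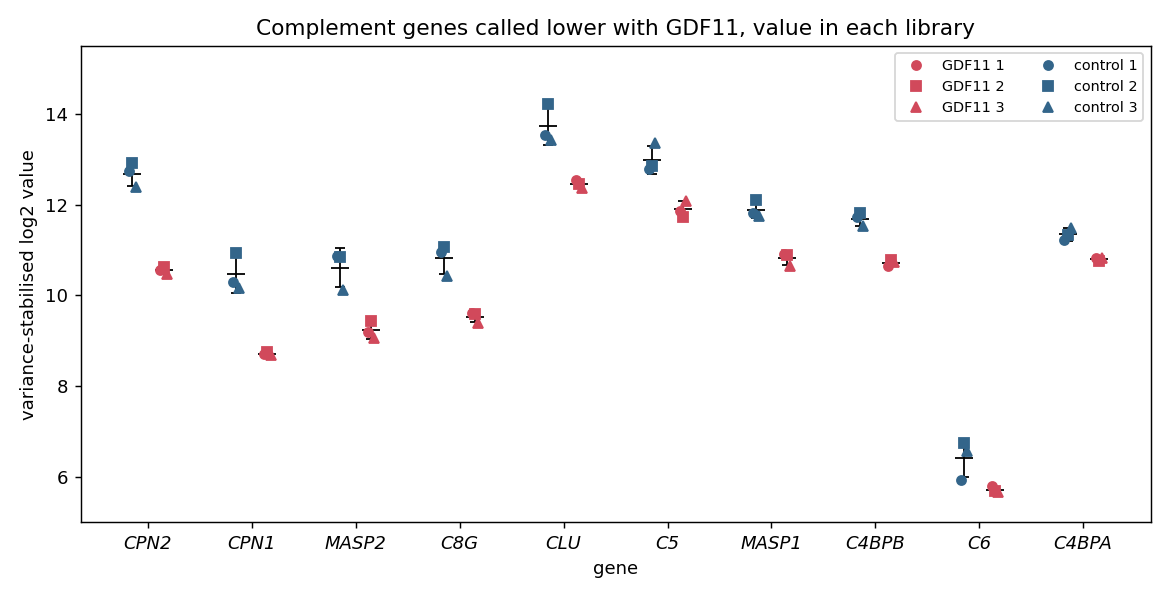
Variance-stabilised log2 value of each of the 10 called complement genes in every library (vertical axis; blue, control; red, GDF11; symbol shape, replicate; horizontal ticks and bars, mean ± SD, n = 3). The GDF11 libraries lie below the controls in every gene and are tightly grouped in CPN1, while control replicate 3 is the lowest control for CPN2, CPN1, MASP2, C8G, CLU, MASP1 and C4BPB and the highest for C5 and C4BPA.

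Fluid-phase regulators held the greatest differences of the 29 tested genes on the deposited scale. CPN2 and CPN1 encode the regulatory and the catalytic subunit of carboxypeptidase N, the plasma enzyme that removes the terminal arginine or lysine of C3a, C5a and bradykinin. CPN2 had values of 12.75, 12.91 and 12.38 in the controls and 10.57, 10.63 and 10.46 with GDF11. The groups were separated by far more than their spread, with a difference of -2.13 ± 0.17 (limma adjusted p = 6.83e-05), and the control reads were 4.64 times those with GDF11. CPN1 had 10.29, 10.94 and 10.17 in the controls and 8.70, 8.75 and 8.69 with GDF11. The GDF11 libraries were nearly alike and all below the controls, with a difference of -1.75 ± 0.21 (limma adjusted p = 0.000539) and control reads 4.10 times those with GDF11.

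Clusterin, a chaperone that keeps the terminal complex out of membranes, followed. CLU had 13.54, 14.21 and 13.44 in the controls and 12.55, 12.46 and 12.36 with GDF11. No library of the treated group reached a control, the difference was -1.27 ± 0.21 (limma adjusted p = 0.00345), and the control reads were 2.51 times those with GDF11. With RNA integrity as a covariate the limma adjusted p of CLU was 0.0786. C4BPA and C4BPB encode the alpha and beta chains of C4b-binding protein, which dismantles the classical C3 convertase and serves factor I as a cofactor. C4BPB had 11.73, 11.81 and 11.52 in the controls and 10.65, 10.78 and 10.73 with GDF11, a difference of -0.97 ± 0.14 (limma adjusted p = 0.00185) and control reads 2.02 times those with GDF11. C4BPA had 11.22, 11.33 and 11.49 against 10.82, 10.75 and 10.83. Neither gene's groups overlapped, but the C4BPA difference was smaller (-0.55 ± 0.14, limma adjusted p = 0.0242, control reads 1.49 times those with GDF11). The C4BPA call was lost without control replicate 2 (limma adjusted p = 0.0537) and without GDF11 replicate 1, 2 or 3 (0.0968, 0.105 and 0.0844).

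The remaining fluid-phase regulators were not called. CFI, which encodes factor I, the protease that cuts C3b and C4b, had 13.28, 13.29 and 13.44 in the controls and 13.10, 13.06 and 13.17 with GDF11. The groups did not overlap, yet the difference was small (-0.23 ± 0.14, 95% interval -0.54 to 0.09, limma adjusted p = 0.27). Of the CFI windows of 75 bases, 78.2% occur in an overlapping gene model (ENSG00000285330), whose reads reached at most 3.19% of those given to CFI. SERPING1, which encodes C1 inhibitor, had 8.03, 8.72 and 8.21 against 8.41, 8.16 and 8.03 and overlapped (-0.12 ± 0.20, limma adjusted p = 0.711). Of the factor H-related genes, CFHR2 had 7.60 to 24.6 normalised reads per library and was not called (0.14 ± 0.13), CFHR3 and CFHR5 had at most 0.962 and 0.973 normalised reads and CFHR4 was listed at the lowest value in every library. CFHR3 shares 96.9% of its 75-base windows with other genes of that family, so even these few reads are uncertain in origin.

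The membrane regulators, which protect the cell's own surface, gave no call. CD46, a cofactor for factor I, had 12.95, 12.72 and 13.16 in the controls and 12.74, 12.55 and 12.83 with GDF11 (-0.23 ± 0.17, limma adjusted p = 0.341). CD55, which speeds the decay of C3 convertases, had 8.96, 8.93 and 9.04 against 8.97, 8.96 and 8.69 (-0.099 ± 0.15, limma adjusted p = 0.662). Both overlapped between groups. CD59, which blocks the insertion of C9, had 13.84, 13.76 and 13.36 in the controls and 14.01, 14.09 and 13.94 with GDF11. Its GDF11 libraries were all above its controls, the opposite side from most of the 29 genes, but the difference of 0.36 ± 0.17 was not called (95% interval -0.03 to 0.75, limma adjusted p = 0.161). C4BPB, C4BPA, CD55 and CD46 lie in that order on the same arm of chromosome 1, from chr1:207088860-207099993 for C4BPB to chr1:207752038-207795516 for CD46, and calls were made in the first pair only. Whether the genes differ from one another in response was not tested.

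**Figure D4:**
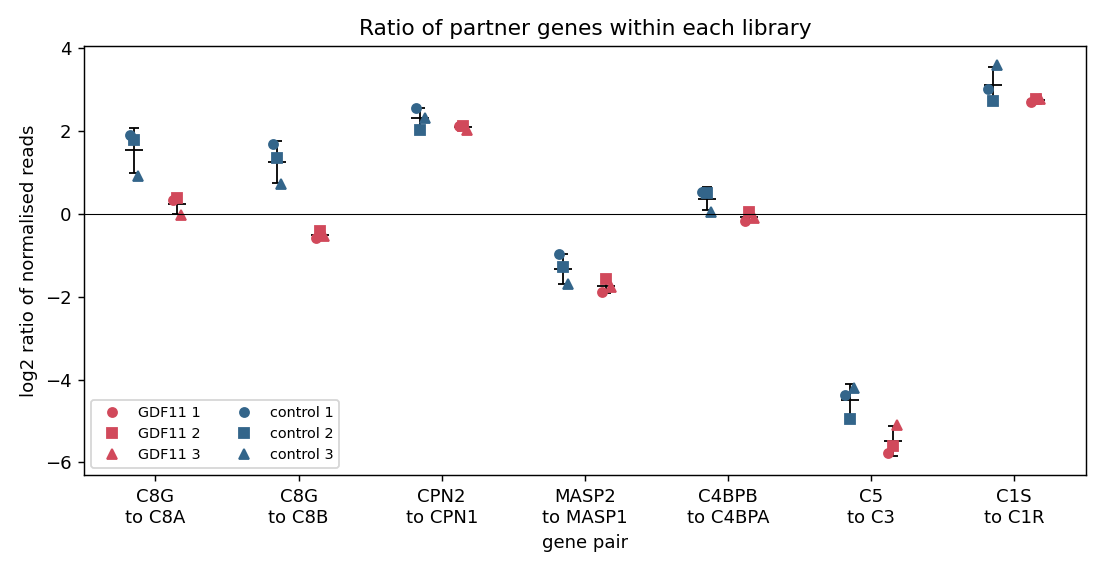
Log2 ratio of normalised reads between genes whose products work together, in each library (vertical axis; blue, control; red, GDF11; symbol shape, replicate; ticks and bars, mean ± SD, n = 3). The ratios of C8G to C8A and to C8B are lower in every GDF11 library than in every control, while those of CPN2 to CPN1, MASP2 to MASP1 and C1S to C1R overlap.

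Ratios between partners, read within a library, describe how evenly the losses fell; 7 pairs were taken after their values had been seen, so no test is given. The log2 ratio of C8G to C8A was 1.89, 1.78 and 0.91 in the controls and 0.32, 0.38 and -0.030 with GDF11. That of C8G to C8B was 1.68, 1.34 and 0.70 in the controls and -0.59, -0.42 and -0.55 with GDF11. In both, the gamma chain transcript lost ground to its partner in every treated library, and control replicate 3 was the lowest control. The ratio of CPN2 to CPN1 was 2.29 ± 0.26 in the controls and 2.09 ± 0.059 with GDF11, and that of MASP2 to MASP1 was -1.33 ± 0.36 and -1.75 ± 0.16. These ranges overlapped between groups, so the replicate spread does not separate the losses of the partners in either pair. C4BPB to C4BPA went from 0.36 ± 0.28 to -0.085 ± 0.11 without overlap. C5 to C3 went from -4.51 ± 0.40 to -5.48 ± 0.35 without overlap, and C1S to C1R was 3.10 ± 0.43 and 2.74 ± 0.041 with overlap.

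Promoter windows, from 250 bases before to 50 after an annotated start, were had for 23 of the 35 genes from RefSeq (GRCh38.p14), 35 windows in all among 35116. Matches on both strands are given for 8 fixed motifs, which may overlap each other. The SMAD palindrome GTCTAGAC was in 0.202% of all windows and, among the complement genes, in that of C8B. The shorter SMAD motif CAGACA was in 16.9% of all windows and in those of C6, C9 and MBL2. The AP-1 motif TGANTCA (7.71% of all windows) was in those of C1RL and CD59. The C/EBP motif TTGCNNAA (10.5%) was in 7 of the 35 windows, from C1R, C1RL, C6, CD59 and MBL2. The STAT motif TTCNNNGAA (7.66% of all windows) was in 10 of the 35 windows. They belong to 8 genes: C1R, C1RL, C4BPB, C7, CD59, CFB, MASP2 and MBL2. In C4BPB and in CD59 overlapping windows hold the same site. HNF4 (CAAAGTCCA, 0.384%) and NF-kB (GGGANTTCC, 1.85%) motifs were in none of the 35 windows, and TATAAA (11.5%) was in those of C7 and CFB. None of these motifs was found in the windows of CPN1, CPN2 or MASP1. The called genes CLU and C8G had no window and were not searched, nor were C3, C4A, C4B and C1S. A match is a description of the letters and shows no binding.

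The 250 bases before the start are shown for both carboxypeptidase N genes, which had the greatest differences and no match. Both lie on the minus strand and are written 5′ to 3′ along the gene.
CPN1, chr10:100081870-100082119: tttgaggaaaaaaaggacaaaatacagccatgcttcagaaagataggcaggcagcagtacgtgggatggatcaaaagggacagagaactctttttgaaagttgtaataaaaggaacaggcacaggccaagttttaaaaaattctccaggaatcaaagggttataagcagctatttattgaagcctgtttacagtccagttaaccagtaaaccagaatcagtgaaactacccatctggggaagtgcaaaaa
CPN2, chr3:194351329-194351578: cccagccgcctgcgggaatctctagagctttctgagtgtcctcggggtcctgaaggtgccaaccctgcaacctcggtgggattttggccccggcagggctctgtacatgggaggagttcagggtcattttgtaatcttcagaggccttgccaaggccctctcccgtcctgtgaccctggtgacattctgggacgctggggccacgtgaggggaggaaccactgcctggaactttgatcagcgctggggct
No stretch is in capitals, since none of the motifs was found there.

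Other genes of the complement system, with C1q-related genes, receptors and plasma proteases that are not all complement components, formed a further list of 32. Of these 14 could be tested, with 2 higher and 3 lower. Over all tested genes 11.7% were called higher and 10.8% lower, so counts this small say little about the list as a whole. C1QBP, which encodes a protein that binds the globular heads of C1q, fell by 0.98 ± 0.16 on the log2 scale (limma adjusted p = 0.00339). COLEC11, which encodes a collectin that can also bring MASP proteases to a surface, fell by 0.64 ± 0.13 (limma adjusted p = 0.0098). F12, the gene of coagulation factor XII, fell by 0.97 ± 0.22 (limma adjusted p = 0.0138). VTN, which encodes vitronectin, an inhibitor of the terminal complex like clusterin, was at 13.55, 14.17 and 13.20 in the controls and 14.68, 14.53 and 14.30 with GDF11. It was called higher (0.86 ± 0.25, limma adjusted p = 0.0357), the opposite side from CLU. C1QTNF1, a C1q and TNF related gene, was also called higher (0.55 ± 0.15, limma adjusted p = 0.0319). The VTN call was lost without control replicate 1 or any 1 GDF11 replicate (limma adjusted p from 0.0636 to 0.125), and that of C1QTNF1 without control replicate 1 or 2 or GDF11 replicate 2 or 3 (0.0535 to 0.113). The calls of COLEC11 (0.0524) and F12 (0.0568) were lost without GDF11 replicate 3, and that of F12 also without control replicate 1 (0.0565). With RNA integrity as a covariate the calls of COLEC11, F12 and C1QTNF1 were lost (limma adjusted p = 0.111, 0.365 and 0.257). Median centring lost those of VTN (0.0552) and C1QTNF1 (0.0571), and quantile normalization that of C1QTNF1 (0.0723). C1QA, C1QB and C1QC, the chains of C1q, which macrophages are known to make, were listed at the lowest value in all libraries, as were FCN2, COLEC10, VSIG4, THBD and CSMD1.

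Acute phase genes, made by hepatocytes beside complement, gave a count of 0 higher and 9 lower of 17 tested among 22 listed, with a median difference of -0.64 against 0.0056 over all tested genes. Of all tested genes 10.8% were called lower. The list does not separate genes that rise in an acute phase response from those that fall, and 8 tested genes were not called. The 9 include ALB and TTR, which were also counted among the hepatocyte markers. At an unadjusted p under 0.05 limma put 0 higher and 10 lower, with no share of all tested genes counted. At the adjusted threshold the count of higher genes was 1 with quantile normalization, library weights, the RNA integrity number or the replicate block. HAMP, the iron hormone hepcidin, fell by 1.49 ± 0.17 (limma adjusted p = 0.00048), and RBP4, the plasma retinol carrier, fell by 2.05 ± 0.27 (limma adjusted p = 0.000858). SAA4, a constitutive serum amyloid A gene, fell by 1.59 ± 0.22 (limma adjusted p = 0.0014), and HP, haptoglobin, fell by 1.26 ± 0.18 (limma adjusted p = 0.00142). These 4 differences lie within the range of the called complement genes. CRP and APCS were at the lowest value in all libraries, and SAA1, SAA2 and LBP were below the filter. The count of lower genes was 6 without GDF11 replicate 3.

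**Figure D5:**
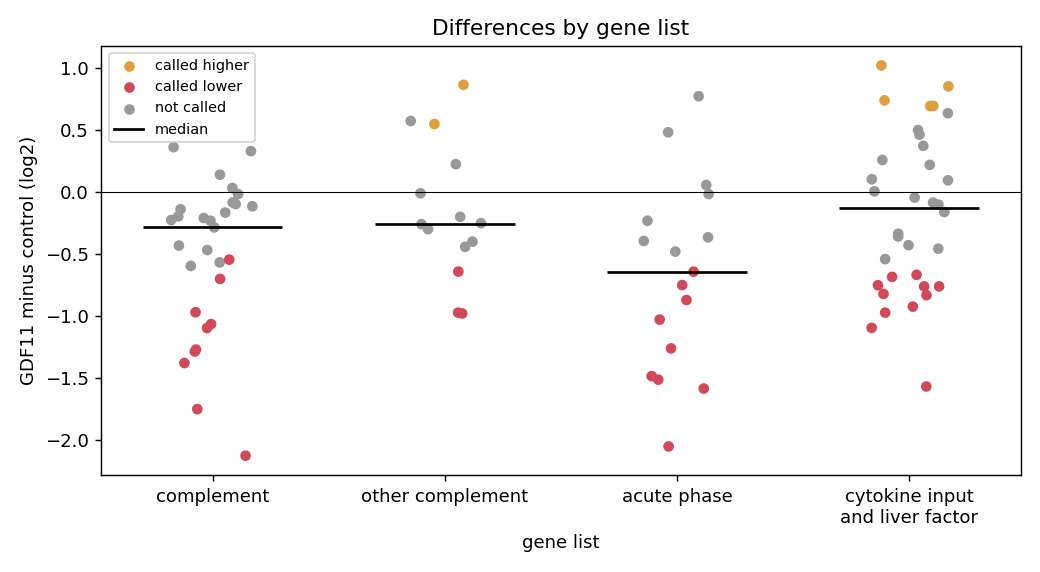
GDF11 minus control on the log2 scale (vertical axis) for each tested gene of the complement list and of 3 other lists (points spread sideways for visibility; orange, called higher; red, called lower; grey, not called; line, median). The complement and acute phase lists hold called genes on the lower side only, and the list of cytokine inputs and liver factors holds calls on both sides.

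Receptors, signalling genes and liver transcription factors known to act on complement genes formed a list of 35, with 34 tested, 5 higher and 11 lower. Over all tested genes 11.7% were called higher and 10.8% lower. Of the 16 liver factors tested, 10 were lower and 0 higher (14 lower and 0 higher at an unadjusted p under 0.05 in limma). No share of all tested genes was counted at the unadjusted threshold. NR1H4, the bile acid receptor FXR, fell by 1.57 ± 0.17 (limma adjusted p = 0.00036), and ONECUT1, a liver-enriched factor, fell by 0.93 ± 0.18 (limma adjusted p = 0.00666). CEBPB, a mediator of acute phase transcription, had 11.87, 12.40 and 11.87 in the controls and 11.29, 11.37 and 11.21 with GDF11. CEBPB was called lower (-0.76 ± 0.18, limma adjusted p = 0.0161), though not without GDF11 replicate 1 (0.0634) or 3 (0.0674). The CEBPB call was also lost with RNA integrity as a covariate (-0.45, limma adjusted p = 0.264). HNF4A, a master factor of hepatocytes, missed the threshold (-0.46 ± 0.15, limma adjusted p = 0.0536) and passed it without control replicate 3 (0.0138).

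Among the signalling genes 5 of 18 were higher and 1 lower. JAK1, a kinase of the interleukin-6 and interferon receptors, rose by 1.02 ± 0.19 (limma adjusted p = 0.00592), but was not called with RNA integrity as a covariate (0.118). SOCS3, the feedback inhibitor of that pathway, rose by 0.85 ± 0.14 (limma adjusted p = 0.00285). STAT3, its main transcription factor in hepatocytes, had 12.88, 12.94 and 13.34 in the controls and 13.62, 13.50 and 13.53 with GDF11. The groups of STAT3 did not overlap, but the difference was not called (0.50 ± 0.17, limma adjusted p = 0.0632). IL6R, the receptor gene, overlapped between groups (0.26 ± 0.27, limma adjusted p = 0.52). Both passed without control replicate 3 (limma adjusted p = 0.00217 for STAT3 and 0.0135 for IL6R). The counts of this list leaned on the libraries used: 10 higher and 15 lower without control replicate 3, and 2 to 3 higher and 5 to 8 lower without any 1 of the other libraries.

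Markers of other cell types were read alongside. Of the leukocyte markers PTPRC, MARCO and CD3E were listed at the lowest value in all libraries, of the endothelial ones TEK and CLEC4G, and of the cholangiocyte ones CFTR. The summed level of the 10 leukocyte markers in normalised reads was 68890 to 80428 for the controls and 32559 to 34256 under GDF11. Nearly all of it was LYZ, which was called lower. CSF1R was called higher, but its control mean was 5.82, less than 0.5 above the lowest value. CSF1R was therefore tested only through its GDF11 values. Its call was lost with RNA integrity as a covariate (limma adjusted p = 0.0532). The 6 endothelial markers in the table summed to 53.1 to 97.3 normalised reads over the controls and 13.2 to 32.9 over the treated libraries, with VWF lower. The 7 stellate or fibroblast markers summed to 824 to 1559 normalised reads and 1982 to 2627, with PDGFRB higher. The 5 cholangiocyte markers summed to 18628 to 19753 normalised reads and 30465 to 34312, with KRT7 and KRT19 higher and SOX9 lower. The part of these shifts in the complement differences was not tested.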

How the data were processed

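Total RNA of 6 HepG2 cultures was sequenced as single reads of 75 bases from directional libraries of 250 ng RNA, per the labels' protocols. The values are log2 values deposited by the authors as variance-stabilised, in 1 table of 60240 Ensembl genes. Per the submitters' processing notes the tools were Trimmomatic, Salmon 1.2.1 and DESeq2 with GRCh38; per the labels' protocols reads were aligned to hg19 with STAR 2.6. The route that led to the values, and whether counting used strand, are not given in the sources used here.

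Genes averaging 0.5 or more over the table's minimum (18723) were fitted with limma 3.58.1 in R 4.3.3 (lmFit, eBayes with a mean trend, two-sided, no covariate), with Benjamini-Hochberg adjustment over all of them and a threshold of 0.05. The fit was tested on simulated data. The scale compresses differences at low values; the curve was inverted to give normalised reads, of which 71.4% to 74.5% of the low values were whole within 0.01, so no count test was run. Fold ratios are of group means of these reads.

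Symbols matched 58349 IDs; positions and promoters are from RefSeq (GRCh38.p14). No protein lengths were had, so levels are per kb of canonical GENCODE transcript on GRCh37. The genes and lists were chosen with earlier results of these data known. Named in full were the called members, 15 fixed members whatever their result, and from each other list up to 4 called genes with the lowest p plus STAT3, CEBPB, HNF4A and IL6R (another gene of this rule, and another promoter motif that was searched, are not reported here); the fifth called gene of the 32 further complement genes and the markers' called genes were named after their values were seen. PECAM1 was not matched. The alternatives covered filters, the variance prior, normalization, scale, threshold, library weights, a covariate for RNA integrity, blocking by replicate number, and leaving out each library.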

Additional observations from a re-analysis of the deposited data

How the results depend on the processing

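Over 17 alternatives, 6 of the 10 lower complement genes (CPN1, CPN2, MASP1, C8G, C5, C4BPB) kept their call. With RNA integrity as a covariate, lower counts were 6 (complement), 1 (other complement) and 2 (cytokine and liver factors), and higher counts 1 (acute phase) and 1 (cytokine and liver factors). Library weights gave 1 higher complement, 1 higher acute phase and 10 higher cytokine and liver factor genes, and quantile normalization 1 higher in each of the complement, other complement and acute phase lists. Other complement genes higher were 0 after median centring and 1 with the stricter filter. At an adjusted p under 0.01 the counts were 0 (other complement, higher), 5 (acute phase, lower), 2 and 4 (cytokine and liver factors, higher and lower). The complement median was -0.45 on log2 of reads plus 1. Without 1 library, complement counts were 0 to 0 higher and 8 to 14 lower with a median of -0.38 to -0.29, other complement 0 to 2 higher and 1 to 4 lower, acute phase 0 to 0 higher and 6 to 10 lower, and cytokine and liver factors 2 to 10 higher and 5 to 15 lower. The cause was not tested. Shares of all tested genes were counted for the reported fit and for the fit without control replicate 3 only.

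Among the genes named, the sign turned only in ones that were not called in the reported fit, and they stayed uncalled in the fits given here. With the RNA integrity number it did for MBL2 (-0.46), C3 (0.12), CFD (0.037), C9 (0.010), SERPING1 (0.28) and IL6R (-0.56), and with library weights for C1RL (0.034), MBL2 (-0.10), C3 (0.17), CFB (0.025), C8A (0.034), C9 (0.058) and SERPING1 (0.12). Quantile normalization turned MBL2 (-0.034) and C3 (0.33), and median centring MBL2 (-0.027). Over the fits without 1 library, differences spanned zero for C1RL (-0.062 to 0.050), MBL2 (-0.19 to 0.16), C3 (-0.32 to 0.0083), C8A (-0.18 to 0.0045), C9 (-0.30 to 0.020) and SERPING1 (-0.26 to 0.082). Same-numbered cultures share only a number: their deviations correlated at -0.088, 0.38 and 0.48. With the replicate number as a block, 13 complement genes were lower and 0 higher, 1 acute phase gene and 8 cytokine and liver factor genes were higher. Depth limits the genes with a few reads, C6, C9 and CFHR2 among them.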
